A study of Mus musculus with 2 samples.

Results

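Guanylate-binding proteins (GBPs) and immunity-related GTPases (IRGs) are families of interferon-inducible GTPases of the mouse. The data hold 6 of their genes, Gbp2, Gbp2b and Gbp4 of the GBP family and Igtp, Irgm1 and Irgm2 of the IRG family, among 886 genes in the authors' deposited table. They were chosen by symbol from that table, whose genes the authors had themselves selected on the difference between both conditions, so every value of the 6 below is a description without a test of its own. RNA sequencing was done on 46C mouse embryonic stem cells, a Sox1 reporter line that carries green fluorescent protein, kept in medium with serum and the cytokine LIF. The control group overexpressed the Flag tag alone (labelled PB_Flag) and the other group overexpressed Flag-tagged Prdm14 (labelled PB_Prdm14), each with 1 labelled sample. The labels do not say whether the overexpressing cells are 1 clone or a pool. The series' design text gives gadd45g in the place where the labels have Prdm14.

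In mouse cells, interferons bind their receptors, JAK kinases phosphorylate STAT proteins, and STAT complexes and interferon regulatory factors (IRFs) turn on genes through short elements near the gene start. Such elements are the gamma-activated site (GAS) and the interferon-stimulated response element (ISRE). GBPs assemble on the vacuoles and surfaces of intracellular pathogens and recruit other defence proteins. Igtp, Irgm1 and Irgm2 are the regulatory IRGs, which sit on the cell's own membranes and hold the effector IRGs in the inactive state. Pluripotent cells are known for a weak interferon response compared with differentiated cells.

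Values are the authors' mean TPM (transcript abundance scaled by transcript length and to a fixed library total) per condition. No value per replicate and no read number are given, so no SD, interval or depth can be stated, and no difference below has a replicate check. The labelled gene Prdm14, a DNA-binding regulator of pluripotency, was at 3.30 TPM in Flag cells and 399 TPM in Prdm14 cells in the authors' deposited table. In this table the smallest absolute log2 fold change is 1.00, no gene has both means under 5.01 TPM, and q-values reach up to 0.0427. A gene outside the table has no value here. Of 8 markers of embryonic stem cells, Nanog, Esrrb and Zfp42 were listed, all higher in Prdm14 cells. Higher genes made up 52.8% of the whole table, so nothing is read from the direction of these markers. None of 24 markers of blood, fibroblasts and endothelium was listed. Levels of those other cell types therefore have no value, and their part in the results was not tested.

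The set of RefSeq promoters used here (build GRCm38.p6, the assembly of mm10) held 5 of the 6 genes and had no entry for Gbp4. Each promoter runs from 250 bases before the gene start to 50 bases after it. The windows were searched on both strands for the ISRE core GAAANNGAAA and for the GAS TTCNNNGAA. All 5 held the ISRE core. They are shown because the Igtp and Irgm2 windows are near copies and all 5 genes share the match; the 120 bases around the match are given 5′ to 3′ along the gene, with the ISRE core in capitals.
Igtp (chr11:58199466-58199585, plus strand): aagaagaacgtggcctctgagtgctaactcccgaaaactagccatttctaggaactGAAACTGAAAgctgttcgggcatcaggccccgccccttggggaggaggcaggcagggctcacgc
Irgm2 (chr11:58214857-58214976, plus strand): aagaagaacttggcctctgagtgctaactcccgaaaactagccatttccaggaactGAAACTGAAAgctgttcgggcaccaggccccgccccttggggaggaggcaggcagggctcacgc
Irgm1 (chr11:48871384-48871503, minus strand): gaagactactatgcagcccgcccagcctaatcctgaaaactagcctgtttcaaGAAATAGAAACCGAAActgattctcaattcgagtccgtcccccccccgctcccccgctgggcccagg
Gbp2 (chr3:142620548-142620667, plus strand): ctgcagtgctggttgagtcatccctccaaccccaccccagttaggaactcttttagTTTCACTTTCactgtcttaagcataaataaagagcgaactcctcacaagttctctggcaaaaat
Gbp2b (chr3:142594654-142594773, plus strand): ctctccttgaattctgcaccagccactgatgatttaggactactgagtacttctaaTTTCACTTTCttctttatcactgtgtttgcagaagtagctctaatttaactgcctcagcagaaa

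Over all 32851 promoters of the same length, 1131 (3.44%) held the ISRE core and 2726 (8.30%) the GAS. The ISRE core began 34 bases before the RefSeq start in Igtp, 64 in Irgm2, 59 in Gbp2 and 137 in Gbp2b. In both GBP genes it lies on the strand opposite to the gene and reads tttcactttc along the gene. Irgm1 held a pair of overlapping matches, beginning 30 and 24 bases before its RefSeq start. The GAS matched in Igtp, as ttctaggaa, and in Irgm2, as ttccaggaa, in each case just ahead of the ISRE core. It had no match in the windows of Irgm1, Gbp2 and Gbp2b. The RefSeq starts of Igtp and Irgm2 lie 15.4 kb apart. GENCODE M21 instead begins Irgm2 only 62 bases after Igtp, and the first bases after the RefSeq start of Irgm2 were not found in its GENCODE transcripts. Irgm1 and Gbp2 also begin earlier in GENCODE than in RefSeq. The Irgm1 window (48871371 to 48871670) lies wholly inside its GENCODE gene, which begins at 48871683 on the minus strand. The GENCODE start of Gbp2, 142620602, lies just ahead of its ISRE core. In these genes a match before the start thus holds for the RefSeq start only. The windows at both RefSeq starts align over 271 columns with 247 identical (91.1%). The windows of Igtp and Irgm1 align over 85 columns with 61 identical, and those of Gbp2 and Gbp2b over 30 columns with 23 identical, although these genes are neighbours.

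**Figure D1:**
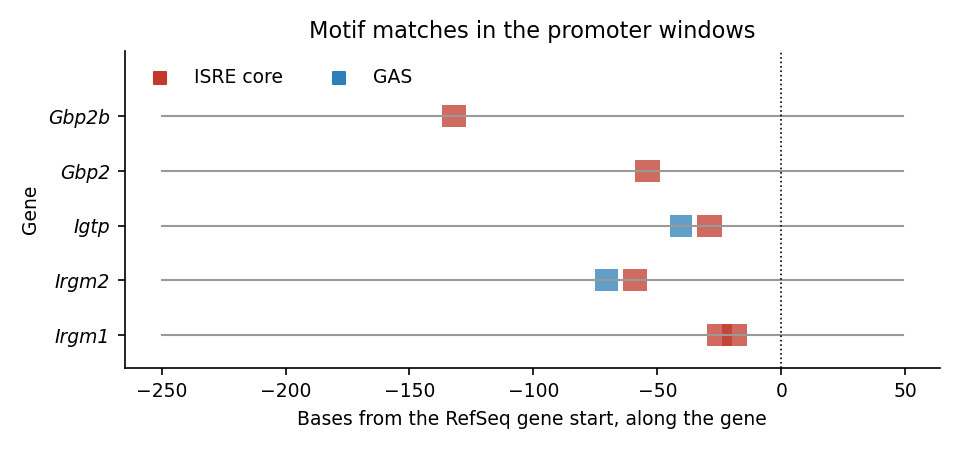
Position of motif matches in the promoter windows of 5 GTPase genes, in bases from the RefSeq gene start along the gene (dotted line). Red boxes are the ISRE core and blue boxes the GAS; every window holds a red box before the start, and the Igtp and Irgm2 windows hold a blue box beside it.

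The ISRE core was not particular to the 5 searched genes within their families. Of the GBP and IRG genes outside the table, 11 had a promoter, of which 8 held the ISRE core (Gbp3, Gbp5, Gbp7, Tgtp1, Tgtp2, Gm12185, Gm12250 and 9930111J21Rik1) and 6 the GAS. Among listed genes with a promoter, 22 of 319 lower genes (6.90%) and 11 of 326 higher genes (3.37%) held the ISRE core, against 1079 of 27025 genes (3.99%) in the whole promoter set. The lower genes include 5 GTPase genes, without which 17 of 314 (5.41%) held it. For the GAS these were 37 lower (11.6%) and 22 higher genes (6.75%), against 9.55% of all. Of 16 listed genes of the other interferon-related lists with a promoter, 3 held the ISRE core (B2m, Erap1 and H2-T22) and 4 the GAS (Ifi35, Irf1, Psmb8 and Socs3). A match in these letters is a description of the window and not a measured binding site.

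All 6 GTPase genes were lower in Prdm14 cells. Lower genes made up 418 of the 886 listed (47.2%), and since the genes were taken from this contrast nothing is read from that comparison. Their median log2 fold change was -3.94, beside -1.60 over all lower listed genes and 1.03 over the table. Summed over the 6 genes, the level was 78.8 TPM in Flag cells and 7.36 TPM in Prdm14 cells, 10.7-fold lower. In bulk RNA, fewer cells with these transcripts and less of them per cell cannot be told apart.

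**Figure D2:**
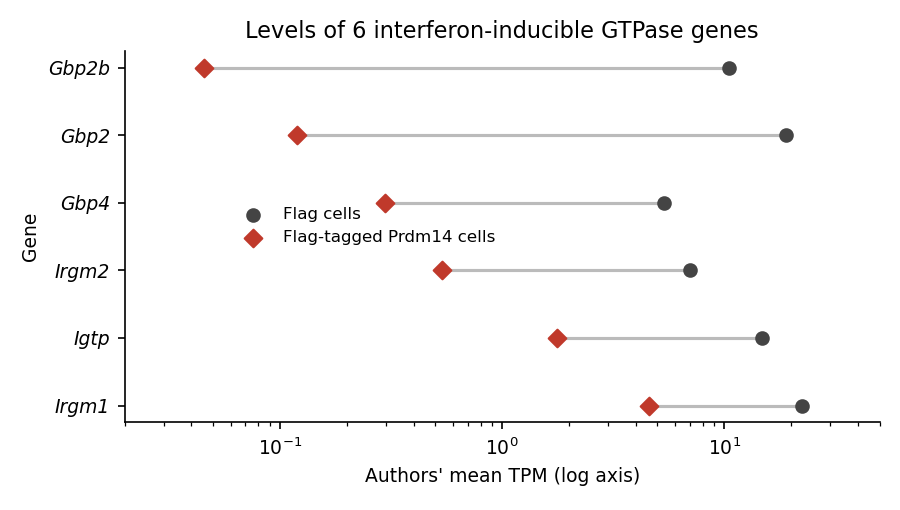
Authors' mean TPM (log axis) of the 6 GTPase genes in Flag cells (circles) and Flag-tagged Prdm14 cells (diamonds), with no error bars because no replicate values are given. Flag values lie between 5.36 and 22.2 TPM; the Prdm14 values lie between 0.0453 and 4.60 TPM, with the GBP genes at the low end.

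The GBP genes had the lowest levels in Prdm14 cells. Gbp2b, named Gbp1 in older mouse literature, was at 10.5 TPM in Flag cells and 0.0453 TPM in Prdm14 cells, 231-fold lower in the authors' deposited table (log2 fold change -7.85, q-value 2.20e-23). Gbp2, a GBP that coats the Toxoplasma vacuole, was at 18.9 and 0.119 TPM, 159-fold lower (-7.31, q-value 0.00146). These were the 7th and 8th largest decreases of the table, after Gm47308 and 5 genes whose Prdm14 mean is at the table's floor of 0.0001 TPM, and both means lay far under 1 TPM in Prdm14 cells. Gbp4 was at 5.36 and 0.298 TPM, 18.0-fold lower (-4.17, q-value 1.62e-17). Its Flag level is just above the table's lowest larger mean of 5.01 TPM. Family genes a little lower than Gbp4, with both means under that level, would have no row. Together the 3 GBP genes went from 34.8 to 0.462 TPM, 75.2-fold lower, and from 44.1% to 6.29% of the sum over the 6 GTPase genes.

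Gbp2 and Gbp2b differ in the strength of the authors' test although their folds are of like size. By q-value Gbp2 ranked 793 and Gbp2b 167 of 886 listed genes, counted from the smallest. Of 145 listed genes that were lower by at least 2 on the log2 scale (16.4% of the table), only 1, the predicted gene Gm47308 (q-value 0.0151, named after its value was seen), had a larger q-value than Gbp2. Gbp2 has the higher level of the pair in both conditions. The spread between the values behind its means is not given, and its part in the q-value was not tested.

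The IRG genes had smaller folds than the GBP genes with no pseudocount. Irgm1, a regulatory IRG needed for resistance to mycobacteria in mice, was at 22.2 TPM in Flag cells, the highest of the 6, and at 4.60 TPM in Prdm14 cells, 4.84-fold lower (log2 fold change -2.27, q-value 2.77e-32). Igtp, also called Irgm3 and found on the endoplasmic reticulum, was at 14.8 and 1.76 TPM, 8.37-fold lower (-3.06, q-value 1.58e-29). Irgm2, found at the Golgi, was at 7.01 and 0.536 TPM, 13.1-fold lower (-3.71, q-value 1.44e-28). With no pseudocount, the gene with the highest Flag level thus had the smallest fold and the one with the lowest had the largest among the IRGs. This order did not hold with a pseudocount of 1 TPM, where Igtp was at -2.51 and Irgm2 at -2.38. With 5 TPM Irgm2 had the smallest fold, at -1.12 beside -1.51 for Irgm1 and -1.55 for Igtp. Together the 3 genes went from 44.0 to 6.90 TPM, 6.38-fold lower, and made up 93.7% of the sum over the 6 GTPase genes in Prdm14 cells.

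In Flag cells the order of levels was Irgm1, Gbp2, Igtp, Gbp2b, Irgm2 and Gbp4, with both families mixed. In Prdm14 cells it was Irgm1, Igtp, Irgm2, Gbp4, Gbp2 and Gbp2b, so all 3 IRG means lay above all 3 GBP means. Which neighbours in either order differ beyond their spread cannot be stated without replicate values. As a difference in TPM instead of a fold, Gbp2 lost 18.8, Irgm1 17.6, Igtp 13.0, Gbp2b 10.4, Irgm2 6.48 and Gbp4 5.06 TPM. On that scale Irgm1, which had the smallest fold, stood second.

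**Figure D3:**
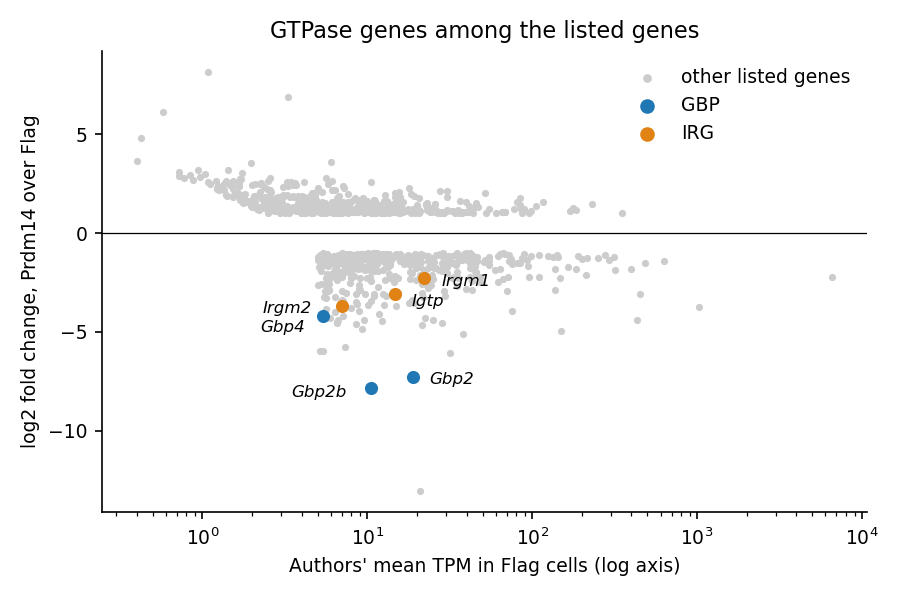
Log2 fold change (Prdm14 over Flag) against the authors' mean TPM in Flag cells (log axis) for listed genes, without 6 genes that have a mean at the table's floor of 0.0001 TPM. Blue points are GBP and orange points IRG genes; Gbp2b and Gbp2 lie below nearly all other genes, at -7.85 and -7.31, and the gap around 0 is the authors' threshold.

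The folds of the lowest genes depend on how values near 0 are treated. With a pseudocount of 1 TPM added to both means, the log2 fold change was -4.15 for Gbp2, -3.46 for Gbp2b, -2.51 for Igtp, -2.38 for Irgm2, -2.29 for Gbp4 and -2.05 for Irgm1. Gbp2 then passed Gbp2b, and Gbp4 lay between the IRG genes, so the separation of the families by fold did not hold at this setting. Gbp2 had already passed Gbp2b with a pseudocount of 0.1 TPM, at -6.44 against -6.19. All 6 remained lower with pseudocounts of 0.1, 1 and 5 TPM, and Irgm1 moved least.

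**Figure D4:**
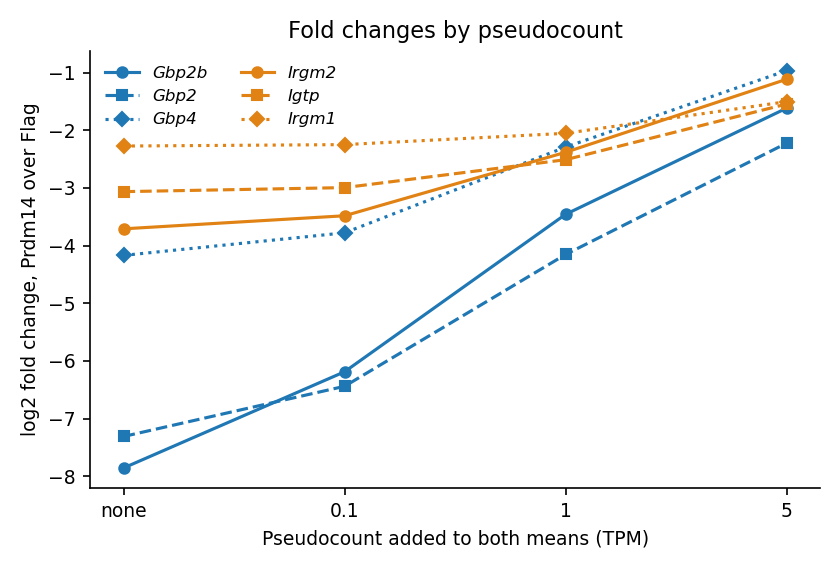
Log2 fold change (Prdm14 over Flag) of each GTPase gene with no pseudocount and with 0.1, 1 and 5 TPM added to both means; blue lines are GBP and orange lines IRG genes. Gbp2b goes from -7.85 to -3.46 at 1 TPM, while Irgm1 goes from -2.27 to -2.05.

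Positions are from the GENCODE M21 annotation of mm10, 1-based. Gbp2b (ENSMUSG00000040264, chromosome 3, 142594847 to 142619179, plus strand) and Gbp2 (ENSMUSG00000028270, chromosome 3, 142620602 to 142638008, plus strand) follow each other with a gap of 1.42 kb. They end a cluster of 5 GBP genes over 144 kb, in which Gbp5, Gbp7 and Gbp3 are outside the table. Gbp4 (ENSMUSG00000079363, chromosome 5, 105115767 to 105139586, minus strand) lies in a cluster of 6 GBP genes over 332 kb and was its only listed gene. Igtp (ENSMUSG00000078853, chromosome 11, 58199556 to 58207591, plus strand) and Irgm2 (ENSMUSG00000069874, chromosome 11, 58199618 to 58222782, plus strand) overlap, and Gm12250 beside them was not listed. Irgm1 (ENSMUSG00000046879, chromosome 11, 48861968 to 48871683, minus strand) lies 9.33 Mb from Igtp and was the only listed gene of a cluster of 7 IRG genes. The 6 genes thus lie in 4 genomic places.

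Listed genes around these clusters did not all go the same way. The nearest listed gene to Gbp2 outside the families, Kyat3 at 63.0 kb, was higher (20.9 to 45.4 TPM). The nearest to Gbp4, Zfp951 at 256 kb, was lower (11.5 to 4.08 TPM), as was the nearest to Igtp, Mfap3 at 666 kb (32.6 to 11.4 TPM). Each was the only such gene within 1 Mb, and Irgm1 had none that near. Without the GTPase genes, 21 of 54 listed genes on chromosome 3 were lower (38.9%), as were 31 of 56 on chromosome 5 (55.4%) and 39 of 63 on chromosome 11 (61.9%).

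Reads that fit several family genes could move the values. Of all 50-base stretches in the annotated transcripts of Gbp2, 2.03% also occur in another gene, all of them in Gbp2b, and for Gbp2b the share was 1.84%, all in Gbp2. At 100 bases neither gene shared any. Igtp shared 11.8% of its 50-base stretches with Irgm2, and Irgm2 7.83% with other genes, most of them with Igtp (6.79%). For Gbp4 the share was 7.78%, spread over Gbp11, Gbp6 and Gm43302 among others, and for Irgm1 it was 0.379%. The median over all 886 listed genes was 0.197%, and 18.3% of them shared over 10%. Only exact matches were counted, on either strand, while read alignment usually tolerates mismatches, and how the authors treated reads with several matches is not given. Igtp and Irgm2 overlap on 1 strand, and Gbp4 overlaps Gbp8 and Gbp9 on its strand, so the values of these 3 genes are uncertain.

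The families themselves were only partly listed. Most genes are outside the table: of 27025 genes with a promoter, 319 lower and 326 higher ones were listed. Of 11 GBP genes 3 were listed and of 16 IRG genes 3, all 6 lower. None of 7 other large GTPases (Mx1, Mx2, Gvin1, the atlastins Atl1, Atl2 and Atl3, and Dnm1l) was listed. Of 10 interferon genes, Ifng and Ifnb1 among them, none was listed.

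Genes that act upstream were mostly outside the table, as most genes are, and nothing is read from that. Of 13 IRF and transactivator genes, Irf1, a transcription factor that binds ISRE-like elements, was the single listed one, at 80.8 TPM in Flag and 28.2 TPM in Prdm14 cells, 2.86-fold lower in the authors' deposited table. Of 17 receptor and JAK-STAT genes, Socs3, a feedback inhibitor of cytokine signalling, was the single listed one, at 7.89 and 2.58 TPM. Stat5b, a STAT gene that is not on this list and was named after its values were seen, was higher, at 3.20 TPM in Flag and 7.47 TPM in Prdm14 cells (log2 fold change 1.22, q-value 0.0066). Irf9, Nlrc5 and the interferon receptor genes have no row, so whether they differed cannot be stated. The promoter window of Irf1 held the GAS and not the ISRE core.

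Genes of both further interferon-related lists were lower where they were listed. Lower genes made up 47.2% of the whole table, and nothing about the lists is read from their counts, since the lists were chosen with earlier results known. Of 40 further interferon-stimulated genes, 7 were listed and all 7 were lower (median log2 fold change -1.88). They ranged from Oasl2, an oligoadenylate synthetase-like protein (8.90 to 0.586 TPM, -3.92), and Zbp1, a nucleic acid sensor (10.1 to 0.813 TPM, -3.63), through Ifi35 (22.2 to 4.06 TPM, -2.45) to Parp14 (7.13 to 2.68 TPM, -1.41). Ifitm1, a membrane protein that restricts virus entry, had the highest level of the 7, at 395 TPM in Flag cells and 112 TPM in Prdm14 cells. The other listed genes were Parp9 (-1.88) and Parp12 (-1.85). Zc3hav1, an interferon-stimulated antiviral protein that is not on the list and was named after its values were seen, was higher, at 4.72 TPM in Flag and 15.0 TPM in Prdm14 cells (1.67). H2-Q2 (6.36 to 0.404 TPM, -3.98) and Parp10 (9.99 to 2.09 TPM, -2.26) were lower. Both are relatives of genes on these lists, are not on them and were likewise named after their values were seen. Zc3hav1 thus went the other way from H2-Q2 and Parp10. Genes off the lists were picked by hand and not gone through as a set, so no balance between directions is read from them. Of 19 antigen presentation genes, 11 were listed, all lower. Their median was -2.03 over the 10 genes off the floor, from Erap1, a peptidase that trims antigenic peptides (9.34 to 0.318 TPM, -4.88), to B2m, the light chain of class I molecules (54.9 to 24.2 TPM, -1.18). Between them lay H2-Q6 (-3.42), Tap2 (-3.23), H2-Q7 (-2.87), Psmb9 (-2.24), Psmb10 (-1.82), Psme2 (-1.73), H2-T22 (-1.68) and H2-Q4 (-1.52). Psmb8 had 11.8 TPM in Flag cells and the floor value in Prdm14 cells, where no fold is given. Gbp2b and Gbp2 lay below every other gene of these interferon-related lists off the floor, and Irgm1 lay within their range; these differences were not tested.

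**Figure D5:**
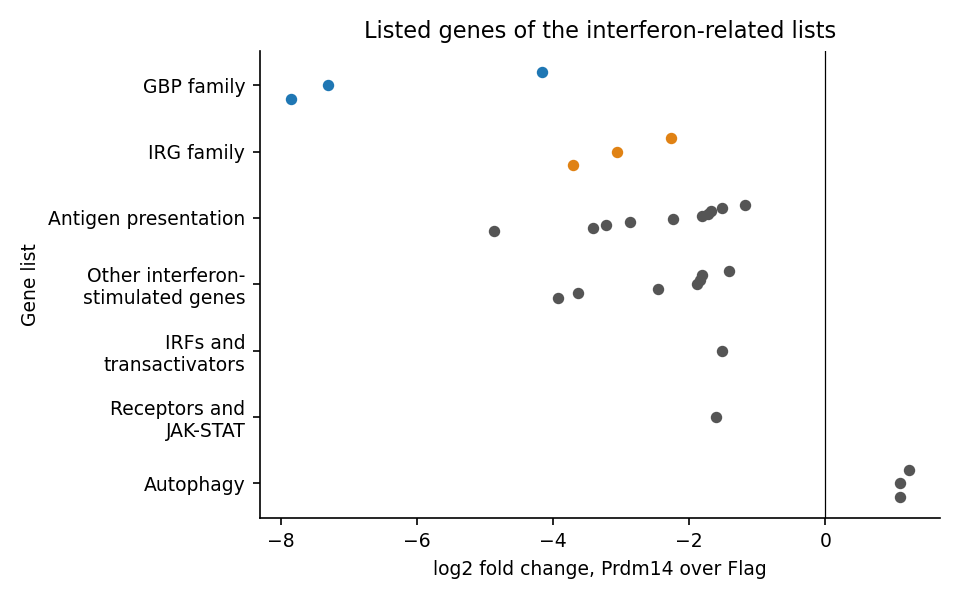
Log2 fold change (Prdm14 over Flag) of the listed genes of each interferon-related list and of the autophagy list, each point a gene, with small vertical offsets for legibility and without Psmb8, whose Prdm14 mean is at the floor. GBP points lie between -7.85 and -4.17 and IRG points between -3.71 and -2.27; all points are below 0 except the 3 autophagy genes.

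Proteins of the autophagy conjugation system are known in mouse cells to direct IRGs and GBPs to pathogen vacuoles. Of 15 genes of this system and of autophagy control, 3 were listed, all higher in Prdm14 cells. Higher genes made up 52.8% of the whole table, and nothing is read from this comparison either. Gabarapl2, an Atg8-family protein and the only listed gene of the conjugation system itself, was at 77.9 TPM in Flag and 182 TPM in Prdm14 cells, 2.34-fold higher in the authors' deposited table. Of the regulators, Ulk1, the kinase that starts autophagy, was at 68.2 and 145 TPM, and Tfeb, a transcription factor for lysosomal genes, at 8.73 and 18.7 TPM. Atg3, Atg5, Atg7 and Atg16l1 were among the 12 genes of the list without a value.

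The listed genes nearest to the median GTPase level of 12.4 TPM in Flag and 0.399 TPM in Prdm14 cells, by distance over both log2 means among 818 named genes, were Slc23a1, Zfp608, Erap1, Cxcl12 and Oasl2. Slc23a1, an ascorbate transporter, was at 9.53 and 0.448 TPM and Zfp608 at 12.4 and 0.5704 TPM. Cxcl12, a chemokine, was at 8.58 and 0.358 TPM. Erap1 and Oasl2, given above, belong to the interferon-related lists. With only 2 conditions this likeness rests on a pair of values per gene.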

How the data were processed

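Total RNA of 46C cells was made into libraries from 1 ug per sample and sequenced on an MGI2000 instrument, per the labels' protocols. Per the submitters' processing notes, Bowtie 0.12.2 and the build mm10 were used. Which program gave the TPM values, and which test the p-values, is not given in the sources used here. The authors deposited 1 table of 886 selected genes with a mean TPM per condition and, for each gene, the direction, q-value, p-value and log2 fold change of their comparison. The number of values behind each mean and the depth are unknown. For the 6 members the deposited log2 fold change equals the log2 ratio of the means to within 4.84e-12.

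All 886 IDs matched a GENCODE M21 symbol. Folds are ratios of the authors' means. No test was run, because no replicate values are given. The members and gene lists were chosen with earlier results of these data known. Genes planned to be named were the 6 members, every listed gene of the lists, Prdm14 and the 5 listed genes nearest to the members' median. That nearness was taken in both log2 means, leaving out predicted genes and those at the floor. Kyat3, Zfp951 and Mfap3 are named as listed neighbours. Gm47308, Stat5b, Zc3hav1, H2-Q2 and Parp10 were named after their values were seen. Motif and shared-stretch searches were tested on simulated data. Promoter windows were aligned locally with Biopython 1.88. Alternatives changed the pseudocount, thresholds, members, promoter window, cluster gap and stretch length. Protein identity was not analysed here. The software was matplotlib 3.10.9, pandas 2.3.3 and numpy 2.4.6 under Python 3.11.15.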

Additional observations from a re-analysis of the deposited data

How the results depend on the processing

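All 6 members were lower with no pseudocount and with 0.1, 1 and 5 TPM. Their median log2 fold change of -3.94 was -2.45 with a pseudocount of 1 TPM, -1.53 with 5 TPM and -5.19 without Irgm2 and Gbp4, the members under 10 TPM in Flag cells. It stayed within 1.5-fold with 0.1 TPM (-3.63) and without Gbp2 and Gbp2b (-3.39). The number of lower listed genes went from 418 to 145 when only log2 fold changes of 2 or more in size were kept and to 254 when the larger mean had to reach 10 TPM, and that of higher genes from 468 to 77 at the fold threshold, as stricter thresholds must. At the fold threshold 3 of the 7 further interferon-stimulated genes, 6 of the 11 antigen presentation genes and 0 of the 3 autophagy genes were left, and Irf1 and Socs3 were lost; Socs3 was also lost at a q-value of at most 0.001 and at 10 TPM. At a q-value of at most 0.001 all members except Gbp2 remained. So did 382 of the 418 lower and 398 of the 468 higher listed genes, and nothing about the members is read from this. The 5 promoters with an ISRE core and the 2 with a GAS kept their match when only bases before the RefSeq start were searched. The 6 family clusters held at a gap of 0.2 Mb. The stretch length, chosen after seeing the data, mattered for shared sequence: at 31 bases the share was 4.85% for Gbp2, 4.15% for Gbp2b, 14.9% for Gbp4, 15.9% for Igtp, 2.88% for Irgm1 and 10.7% for Irgm2, and at 100 bases 0%, 0%, 1.64%, 5.16%, 0% and 3.01% in that order. The planned protein identity comparison was not run. No paired analysis was possible because each condition has 1 deposited mean. With TPM means alone, levels as low as those of Gbp2b in Prdm14 cells have no known counting error.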
